A study of Mus musculus with 2 samples.

Results

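Open chromatin regions of the distal mouse femur that were absent from the proximal femur, and that lay far from the start of any gene, numbered 2832. They made up 10.1% of the 27958 distal peaks and 67.5% of the 4194 distal peaks that overlapped no proximal peak. A peak was counted here when it overlapped none of the 28257 proximal peaks by even 1 bp and when its nearest edge lay more than 3 kb from every transcription start site annotated in GENCODE mouse release 21. These peaks were selected on their presence in one list and absence from the other, and on their distance from start sites, so that their specificity is a description of the choice and carries no test. Of the 13196 distal peaks beyond 3 kb, 21.5% met the rule and the other 10364 were shared with the proximal femur. The rule kept peaks whose nearest start site was 3011 bp away (nearest protein-coding gene Tmem45a) and 3013 bp away (Cblb), and left out peaks at 2999 bp (Ctnnb1) and 2986 bp (Paics). It kept peaks with a gap of only 30 bp (Slc7a5) and 46 bp (Dnah7c) to a proximal peak, while the shared peaks with the least overlap had 221 bp (Bdkrb2) and 229 bp (1700129C05Rik) in common with one.

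ATAC-seq, in which a transposase cuts accessible DNA and tags it for sequencing, was the assay. Proximal and distal cartilaginous ends of the femur, with growth plate and perichondrium, were dissected from FVB mouse embryos (strain label FVBNJ) at E15.5, each end was pooled over a litter, and the dissociated cells were labelled chondrocytes. The labels name no treatment, mutation or transgene, so that both groups share genotype and age and differ in the end of the bone. The authors aligned the reads to mm10, the C57BL/6J reference, and deposited for each end 1 list of peak positions, filtered across the biological replicates at an irreproducible discovery rate (IDR) of 0.05. With 1 list per end and neither heights nor depth in it, a peak is present or absent, no value carries replicate error, and the comparisons below set lists side by side without a test of the conditions. Intervals are 95% Wilson intervals and cover counting error only.

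Accessible sequence far from start sites includes enhancers, which bind transcription factors and act on promoters over long distances, and sites of CTCF, the factor that anchors chromatin loops. In the growth plate, chondrocytes proliferate, enlarge and are replaced by bone under the control of Sox9, Runx, hedgehog, bone morphogenetic protein and other pathways. The gene nearest to an element is a label of its place and need not be the gene on which it acts.

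The sequences below show 200 bases around peak centres, on the plus strand of GRCm38 (the chromosome sequences of mm10). The first 6 are from the widest peak of each of 6 of the 12 genes that had 5 or more peaks of this kind, and the following 3 from the widest peak that was nearest to a gene of the lists used below and that held the AP-1 (Irx3), CTCF (Jun) or EGR (Erg) motif. The last, which was chosen after the values were seen, is the widest peak of a stretch between the starts of Pitx1 and H2afy. Capitals mark each match, on either strand, to 1 of 25 short strings that stand for binding motifs.
Fat1, chr8:44349601-44349800: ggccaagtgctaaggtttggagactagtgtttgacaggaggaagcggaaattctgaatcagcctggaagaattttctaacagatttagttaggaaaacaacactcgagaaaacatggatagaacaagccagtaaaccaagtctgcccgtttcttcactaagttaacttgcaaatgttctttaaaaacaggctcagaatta
Tox, chr4:6793131-6793330: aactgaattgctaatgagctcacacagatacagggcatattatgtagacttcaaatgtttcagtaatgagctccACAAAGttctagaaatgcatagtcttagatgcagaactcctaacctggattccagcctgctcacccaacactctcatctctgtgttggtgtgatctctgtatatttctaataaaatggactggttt
Car8, chr4:8095964-8096163: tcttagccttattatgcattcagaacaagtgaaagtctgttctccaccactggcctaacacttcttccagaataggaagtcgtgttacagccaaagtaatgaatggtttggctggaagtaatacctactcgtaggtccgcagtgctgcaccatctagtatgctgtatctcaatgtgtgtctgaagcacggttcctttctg
Creb5, chr6:53337404-53337603: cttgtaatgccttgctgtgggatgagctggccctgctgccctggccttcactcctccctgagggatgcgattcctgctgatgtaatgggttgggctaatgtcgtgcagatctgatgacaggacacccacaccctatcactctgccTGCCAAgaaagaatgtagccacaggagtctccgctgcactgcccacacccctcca
Gpc5, chr14:114567941-114568140: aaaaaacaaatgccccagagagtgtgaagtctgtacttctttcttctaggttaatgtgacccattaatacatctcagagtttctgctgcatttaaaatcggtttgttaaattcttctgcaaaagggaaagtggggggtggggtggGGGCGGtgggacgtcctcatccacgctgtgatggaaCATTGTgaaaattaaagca
Lpp, chr16:24347979-24348178: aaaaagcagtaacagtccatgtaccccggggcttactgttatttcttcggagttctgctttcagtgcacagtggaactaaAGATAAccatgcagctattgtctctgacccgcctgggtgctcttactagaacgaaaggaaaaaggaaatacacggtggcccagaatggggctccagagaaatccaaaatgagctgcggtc
Irx3, chr8:91973807-91974006: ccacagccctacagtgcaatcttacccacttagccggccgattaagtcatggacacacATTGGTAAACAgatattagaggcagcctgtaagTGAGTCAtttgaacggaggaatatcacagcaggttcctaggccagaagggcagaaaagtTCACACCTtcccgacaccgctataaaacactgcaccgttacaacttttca
Jun, chr4:95278287-95278486: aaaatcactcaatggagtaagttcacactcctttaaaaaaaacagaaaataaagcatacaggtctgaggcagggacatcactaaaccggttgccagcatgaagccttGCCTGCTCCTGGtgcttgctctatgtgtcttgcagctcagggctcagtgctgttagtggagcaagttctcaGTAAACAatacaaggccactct
Erg, chr16:95575278-95575477: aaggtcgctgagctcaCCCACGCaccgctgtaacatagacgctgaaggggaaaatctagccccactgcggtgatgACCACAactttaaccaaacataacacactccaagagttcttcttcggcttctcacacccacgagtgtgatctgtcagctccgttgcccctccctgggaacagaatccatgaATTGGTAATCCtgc
between Pitx1 and H2afy, chr13:56021727-56021926: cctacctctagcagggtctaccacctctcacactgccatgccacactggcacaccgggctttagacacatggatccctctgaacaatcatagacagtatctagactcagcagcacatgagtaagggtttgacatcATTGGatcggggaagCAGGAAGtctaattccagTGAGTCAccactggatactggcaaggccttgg

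A match is a description of the letters and not a bound site. The windows of Fat1 and Car8 held none of the 25 strings, and that of Creb5 held only the string TTGGCA of NFI factors. The Lpp window held the GATA string AGATAA, the Tox window the SOX string ACAAAG, and the Gpc5 window the SOX string ACAATG and the SP/KLF string GGGCGG. In the Jun window the capitals mark the CTCF motif, which is named here without its letters, and the FOX string GTAAACA. The Erg window held the EGR string GCGTGGG, the RUNX string ACCACA, and the NFY string CCAAT directly followed by the PITX string TAATCC. In the Irx3 window, the AP-1 string TGAGTCA began at base 92 of the 200, and the T-box string, on the minus strand, covered bases 151 to 158, while the NFY and FOX strings overlapped by 1 base at position 63. The window between Pitx1 and H2afy held the AP-1 string at bases 169 to 175 and the ETS string CAGGAAG at bases 151 to 157.

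Several of these strings are frequent in any sequence of this length, and windows beside the peaks and at start sites give the background. NFY was in 22.7% of the distal-specific windows, 26.2% of the side windows 2 kb away and 30.2% of the windows of the same length at the start sites of protein-coding genes. ACAAAG was in 13.8%, 17.0% and 10.6%, ACAATG in 5.23%, 12.6% and 6.43%, and AGATAA in 4.84%, 11.6% and 5.77%. These 4 strings were thus less frequent in the peaks than beside them. In proximal-specific and shared peaks, NFY was in 24.1% and 22.1% and ACAAAG in 12.5% and 12.9%. ACAATG was in 6.94% and 5.92% of them, and AGATAA in 4.82% and 4.47%. Those shares too lay below the side windows, so the trait was not particular to distal-specific peaks. For PITX the shares were 6.96%, 8.26% and 4.74% and for FOX 3.74%, 2.82% and 1.84%, in the same order, and for both the intervals of the peaks and the side windows overlapped. NFI (15.8%, 9.46% and 8.55%), ETS (10.2%, 7.23% and 9.19%) and GGGCGG (6.18%, 2.43% and 40.4%) were more frequent than beside the peaks. The same held for the E-box CAGCTG (14.8%, 8.64% and 11.3%) and the CRE string TGACGTCA (0.424%, 0.0714% and 2.19%). Proximal-specific and shared peaks were also above the side windows for NFI (14.5% and 14.4%) and ETS (11.7% and 10.8%). So they were for GGGCGG (4.45% and 8.55%) and CAGCTG (14.1% and 15.1%). The E-box CATCTG (14.7%, 15.97% and 10.0%), the homeobox string TAATTA (4.91%, 5.75% and 3.12%) and the LEF/TCF string ATCAAAG (2.54%, 3.28% and 2.095%) were not more frequent than beside the peaks, with overlapping intervals. The MEF2 string TATTTTTA (2.37%, 3.73% and 1.09%) and the posterior HOX string CAATAAA (3.35%, 4.91% and 2.57%) were less frequent than beside the peaks, and the intervals did not overlap. Proximal-specific (2.32% and 2.83%) and shared peaks (2.32% and 2.39%) were also below the side windows for these strings.

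The distant distal-specific peaks were divided almost equally between introns and intergenic sequence. Introns held the centres of 1363 peaks (48.1%, interval 46.3% to 49.97%) and intergenic sequence those of 1367 (48.3%, 46.4% to 50.1%). Exons outside the untranslated regions held 54 peaks (1.91%), 3′ untranslated regions 46 (1.62%) and 5′ untranslated regions 2. Proximal-specific peaks under the same distance limit, of which there were 3530, were intronic in 46.6% of cases and intergenic in 51.5%. Shared peaks were intronic in 44.5% (43.6% to 45.5%) and intergenic in 52.2% (51.2% to 53.2%), so the intervals for both positions did not overlap those of the distal-specific peaks. When only protein-coding genes were counted, 41.8% of the distal-specific peaks were intronic and 54.8% intergenic.

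**Figure D1:**
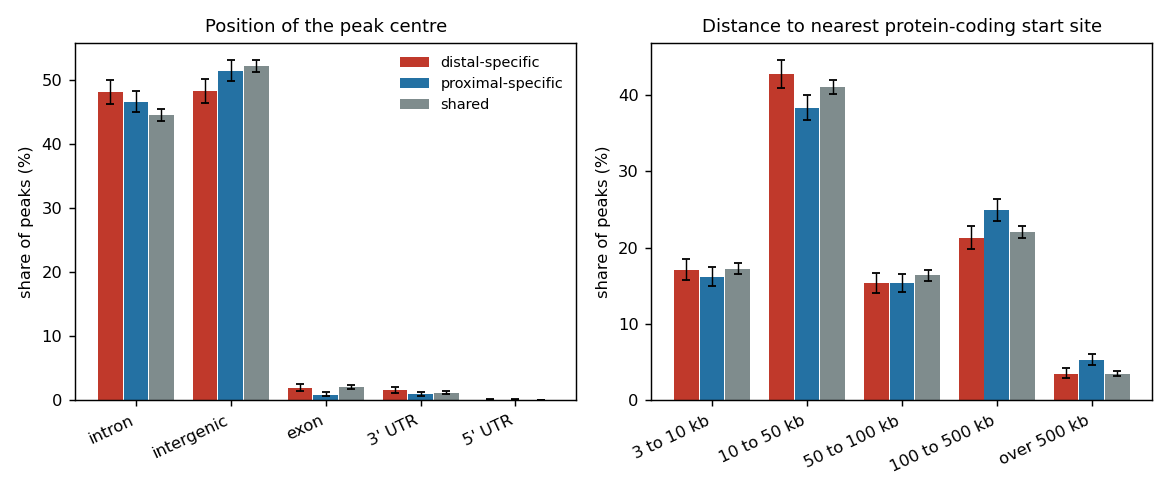
Bars give the share of peaks (%) by the position of the peak centre (left) and by the distance to the nearest protein-coding start site (right), for distant distal-specific, proximal-specific and shared peaks, and error bars are 95% Wilson intervals. Introns held 48.1% of the distal-specific peaks against 44.5% of the shared peaks, and the bins of distance differed by less than 5 percentage points between the groups.

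Of the intronic peaks, 1153 (84.6%) lay in an intron of the longest coding transcript of a protein-coding gene. The first intron held 319 of these (27.7%, against 26.9% of proximal-specific and 26.7% of shared peaks). The host introns were long, with a median of 36950 bp. In 88.6% of cases the host was also the gene with the nearest start site, so for these peaks the 2 ways of naming a gene gave the same name.

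The median distance from a distal-specific peak to the nearest protein-coding start site was 34336.5 bp, with quartiles of 13498.5 bp and 99102 bp. It was 42430.5 bp for proximal-specific and 35979.5 bp for shared peaks. Intronic distal-specific peaks lay closer, at a median of 26316 bp, than intergenic ones, at 54292 bp. The most common range was 10 to 50 kb (42.8%), and 3.50% (2.88% to 4.24%) lay over 500 kb from any protein-coding start, against 5.30% (4.61% to 6.09%) of proximal-specific peaks. Upstream and downstream positions were about as frequent, with 48.4% upstream of the nearest start. Their median width was 477 bp (range 229 to 1850 bp), below the 506 bp of proximal-specific and the 591 bp of shared peaks.

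Shared peaks were seldom close by. The nearest one lay at a median of 28204 bp (quartiles 12109 bp and 66500 bp, range 40 bp to 1417828 bp). Only 25 peaks (0.883%) had a shared peak within 500 bp and 51 (1.80%) within 1 kb, whereas 577 (20.4%) had one within 10 kb and 1913 (67.5%) within 50 kb. Few of them thus adjoined a shared peak. The rule has a part in this, as the peaks could overlap no proximal peak. It also kept them more than 3 kb from start sites, and so from shared peaks there. For proximal-specific peaks the median was 29981.5 bp, with 20.8% within 10 kb and 64.5% within 50 kb. When only shared peaks beyond 3 kb of a start site were counted, the median for the distal-specific peaks was 59714.5 bp. A proximal peak of any kind lay within 500 bp of 32 distal-specific peaks (1.13%), at a median of 23138 bp.

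**Figure D2:**
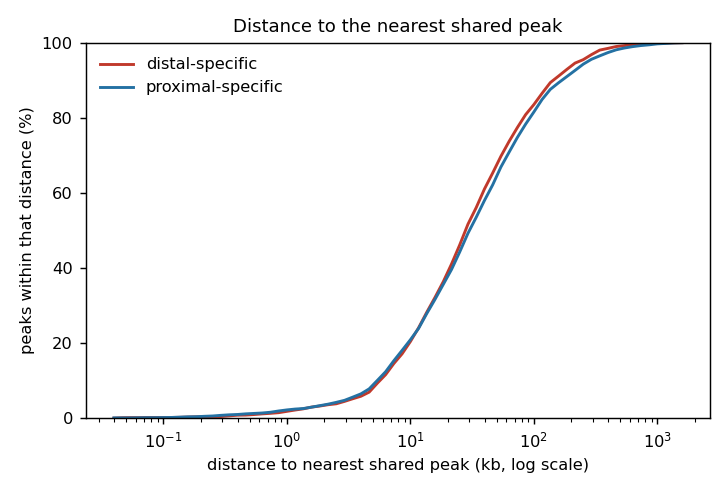
Curves give the share of peaks (%) that had a shared peak within the distance on the horizontal axis (kb, log scale), for the distant distal-specific and proximal-specific peaks. Both curves are low at 1 kb, where 1.80% of the distal-specific peaks had a shared neighbour, and reach 67.5% and 64.5% at 50 kb.

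The peaks were also scattered with respect to each other. The nearest other distal-specific peak lay at a median of 212890 bp, and 139 peaks (4.91%) had one within 10 kb. Proximal-specific peaks were scattered to the same degree, with 4.93% within 10 kb of another. Among the more numerous shared peaks, 17.4% had a shared peak of the same kind within 10 kb. All 19 autosomes held some, from 75 on chromosome 19 to 227 on chromosome 3, and between 17.2% (chromosome 7) and 24.3% (chromosome 14) of the distant distal peaks of a chromosome were specific.

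The genes near these peaks mostly had an open start in both ends. For 2016 of the 2832 peaks (71.2%, 69.5% to 72.8%), the nearest protein-coding gene had a shared peak within 1 kb of a start site. Counted over genes, this was so for 69.1% of the 2178 genes nearest to such a peak and for 54.9% of all 20807 autosomal protein-coding genes. The gene's start had a peak in the distal femur only for 97 distal-specific peaks (3.43%, 2.82% to 4.16%), a proximal peak only for 52 (1.84%), and none for 661 (23.3%). The corresponding share with a distal-only start was 3.003% for proximal-specific peaks and 3.25% for shared peaks, within the interval for the distal-specific peaks. Genes with a start open at both ends accounted for 72.4% of proximal-specific and 73.6% of shared peaks.

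A protein-coding gene was nearest to at least 1 distal-specific peak in 2178 cases, which is 10.5% of the autosomal protein-coding genes. Of these, 1708 had a single peak and 338 had 2. At least 3 peaks fell to 132 genes (0.634%), which together held 448 peaks (15.8%), and at least 5 to 12 genes (0.0577%). Genes with several peaks had much sequence around them. The stretch of autosome nearer to a gene's start sites than to those of any other protein-coding gene had a median length of 43.5 kb over all genes, 210 kb for genes with a peak and 608 kb for genes with 3 or more. The part of this length in the counts was not tested, and the density per megabase is given beside some of them (1.15 per Mb over the autosomes).

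Of the 2178 genes, 1414 (64.9%) also had a distant shared peak, against 24.1% of all protein-coding genes, and 816 (37.5%) a distant proximal-specific peak, against 11.8%, while 629 had neither. Of the 132 genes with 3 or more, 47 (35.6%) had no proximal-specific peak and 14 (10.6%) no shared peak beyond 3 kb, against 88.2% and 75.9% of all protein-coding genes. Genes with peaks also had the longer stretches given above, and the part of length in these shares was not tested.

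Fat1, Tox and Celf4 had 6 distal-specific peaks each. Fat1, which encodes an atypical cadherin, had 3 in its introns and 3 upstream of the gene at up to 585467 bp, with 2 proximal-specific and 8 shared peaks nearby. Tox, a transcription factor with an HMG box, had 5 in its introns and 1 upstream, with 1 proximal-specific and 3 shared peaks. Celf4, an RNA-binding protein on chromosome 18, had 2 in introns and 4 intergenic, spread over 2145825 bp. These 3 genes thus combined distal-specific with shared elements. At Tox the density was 5.75 per Mb and at Celf4 2.26 per Mb.

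The genes with 5 peaks were Car8, Creb5, Gpc5, Lpp, Lrig3, Serp2, St6galnac3, Tenm3 and Zfp516. Creb5 and Lpp were the only genes with 5 or more that had no proximal-specific peak. Tenm3, which encodes a teneurin adhesion receptor, had more proximal-specific (6) and shared (14) than distal-specific peaks. The lowest densities of the genes with 5 were at Tenm3 (1.68 per Mb) and Gpc5 (2.77 per Mb), against 1.15 per Mb over the autosomes. Serp2 was the most compact, with 5 intergenic peaks upstream of its start within 194614 bp (18.8 per Mb), and no peak at its own start in either end.

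**Figure D3:**
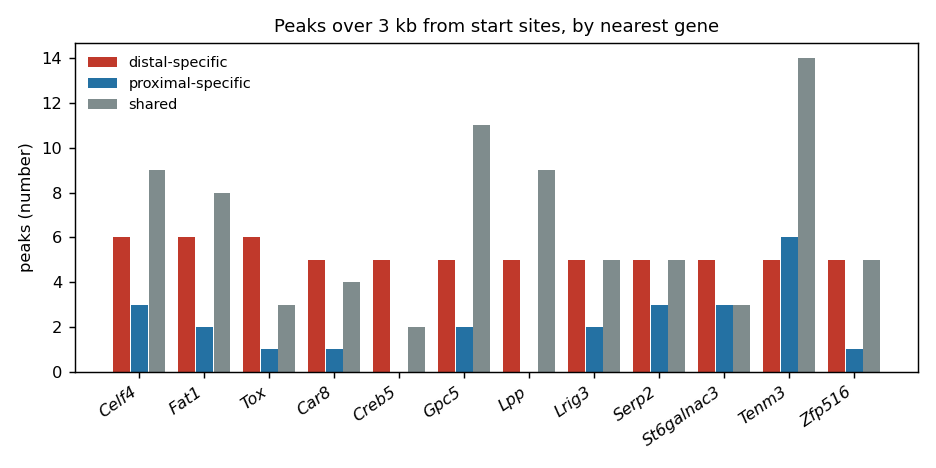
Bars give the number of distant distal-specific, proximal-specific and shared peaks whose nearest protein-coding start belonged to each of the 12 genes with at least 5 distal-specific peaks. Creb5 and Lpp have no proximal-specific bar, and Tenm3 has 6 proximal-specific and 14 shared peaks beside its 5.

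Creb5, a transcription factor of the basic leucine zipper family, held all 5 of its peaks in its own introns. Counted from its most upstream start, their centres lay 50.2, 84.9, 168, 211 and 276 kb into the gene, on chromosome 6 between 53337187 and 53563160. The first lies in intron 1, the next in intron 2 and the other 3 in intron 5, which is 156743 bp long. The most upstream start of Creb5 was itself covered by a distal peak without a proximal counterpart, 813 bp wide, which the distance rule left out. Shared peaks began beyond these, with 1 near an internal start at 286 kb and the others at 329 and 367 kb, and 0 proximal-specific peaks lay in the gene. The first 276 kb of Creb5 thus contained 6 distal peaks in a row that the proximal list lacked. Of the 5 intronic peaks, 1 held the AP-1 string and 1 both SOX strings. The density at Creb5 was 9.63 per Mb.

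The stretch between the starts of Pitx1 and H2afy held 5 distal-specific peaks and, more than 3 kb from start sites, no shared one. Both loci were chosen for this account and for the plot after their values were seen. Pitx1 encodes the homeodomain factor that specifies hindlimb identity, and H2afy a variant of histone H2A. From 55923565 to 56102704 on chromosome 13 lay 5 distal-specific peaks, with 0 proximal-specific and 0 shared peaks among them. Relative to the most upstream start of Pitx1, with upstream as negative, their centres were at -87.5, -127, -186, -230 and -266 kb, the last within H2afy. The nearest start was that of Pitx1 for the first and that of H2afy for the other 4. H2afy had a shared peak at its start, whereas at Pitx1 the only peak within 1 kb of a start was proximal-specific, 455 bp wide and 4.84 kb inside the gene. The centres of 3 of the 5 lay in introns and of 2 in exons, of annotated genes of any type. The AP-1 string was found in 1 of the 5, the CTCF motif in another and the posterior HOX string CCATAAA in another. The density at H2afy was 20.3 per Mb.

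**Figure D4:**
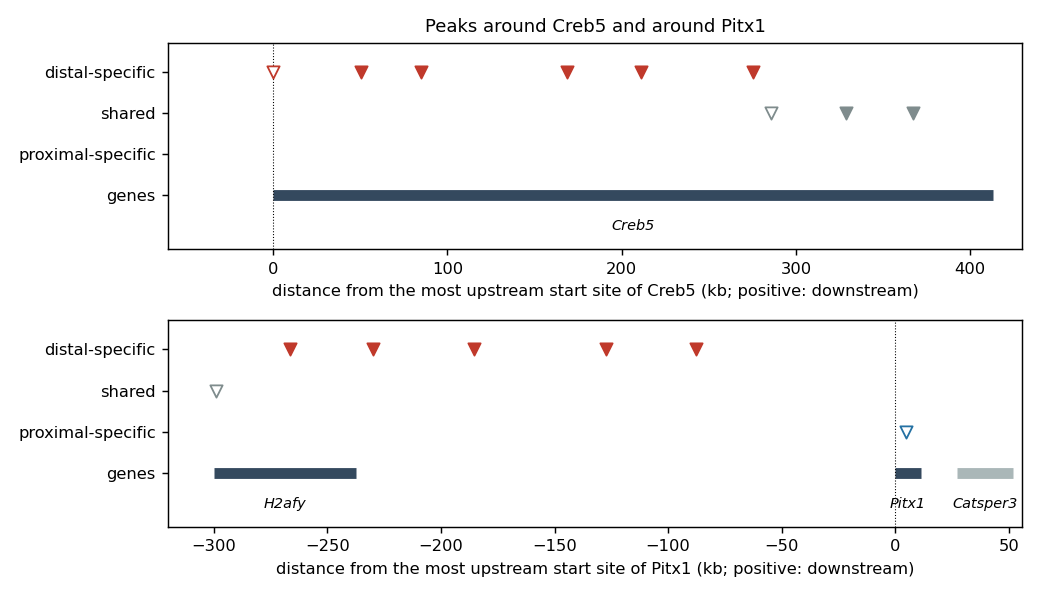
Triangles mark the centres of distal-specific, shared and proximal-specific peaks by distance (kb) from the most upstream start site of Creb5 (top) and of Pitx1 (bottom), with filled triangles more than 3 kb from every start site and open triangles nearer, and bars mark protein-coding genes (dark on the strand of the gene named on the axis, light on the other). In Creb5, 5 filled distal-specific peaks precede the shared peaks, and 5 filled distal-specific peaks lie between Pitx1 and the shared peak near the start of H2afy.

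Other dense stretches of 200 kb mixed the kinds of peak. Tox held 5 distal-specific peaks from 6792867 to 6923254 on chromosome 4, together with 1 proximal-specific and 3 shared peaks. Mtus1, which encodes a microtubule-associated protein, and its neighbour Pcm1 held 5 within introns on chromosome 8, with 0 proximal-specific and 8 shared peaks. The stretch near Serp2 on chromosome 14 held 5, with 2 proximal-specific and 4 shared, and one near Cnih3, Ccdc121 and Dnah14 on chromosome 1 held 4. Among the 5 densest stretches, the one between the starts of Pitx1 and H2afy was the only one without a distant shared peak.

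Further genes with at least 3 distal-specific and no proximal-specific peaks included signalling and transcription factor genes. Gfra1 (a coreceptor for GDNF), Id4 (an inhibitor of basic helix-loop-helix factors), Phactr2, Sorl1 and Runx1 had 4 each, and Acvr2a (an activin receptor) had 3. The density at Acvr2a was 1.55 per Mb, near the 1.15 per Mb over the autosomes. At the genes just named with 4, it lay between 6.09 per Mb (Id4) and 17.5 per Mb (Phactr2). The 4 peaks of Id4 lay together in intergenic sequence, between 366520 and 417973 bp from its start. Those of Runx1, a core-binding factor of blood and skeletal cells, comprised 1 in its intron 5, only 65 bp from a shared peak, and 3 intergenic peaks between 266483 and 324342 bp from the nearest start. At Phactr2 all 4 lay inside the gene, 3 in introns and 1 in an exon. The start of Mtus1 had a peak in the distal femur only, and the start of Sorl1 had none.

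The lists of genes for growth plate, limb and signalling biology held 292 genes, of which 87 (29.8%) were nearest to at least 1 distal-specific peak, against 10.5% of all protein-coding genes. The stretch nearest to the listed genes was also longer, with a median of 137 kb against 43.5 kb, and its part in the difference was not tested. When any start site within 100 kb was counted in place of the nearest, the shares were 36.6% and 21.9%. The lists were chosen with earlier results of these data known, so both comparisons are descriptions and not tests.

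Among 16 chondrogenic regulators, 6 had a distal-specific peak. Sox5, a partner of Sox9 in cartilage gene activation, had 4, beside 4 proximal-specific and 17 shared peaks, and its start had a peak in the proximal femur only. Sox9 itself, the master regulator of chondrocytes, had 3, at 302545, 605928 and 757360 bp from its start, with 6 proximal-specific and 10 shared peaks. Hmga2 and Nfib had 2 each, and Nfib had no proximal-specific peak. Of 22 cartilage matrix genes, 5 had a peak, namely Col11a1 (3 intergenic peaks, with 3 proximal-specific), Acan, Col27a1, Col9a1 and, named to complete the count after its value was seen, Hapln1. For Col27a1, a fibrillar collagen, the peak lay in intron 24. This share of 22.7% had an interval of 10.1% to 43.4%, and the median stretch nearest to these genes was 43.1 kb, close to that of all genes. The count depended on the rule. With any peak within 100 kb of a start counted, 13 of the 22 cartilage matrix genes had one, against 21.9% of all protein-coding genes.

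In the hedgehog and PTHrP list, 3 of 17 genes had a peak. Gli3, the repressor and effector of hedgehog signals, had 3, with 0 proximal-specific and 8 shared peaks. Pthlh, which encodes PTHrP, had 1 intergenic peak of 1092 bp at 30581 bp from its start, and Cdon, a hedgehog coreceptor, had 1. FGF pathway genes had a peak in 3 of 19 cases (Etv5, Fgfr4 and Spred2). The BMP list had 9 of 25, with 2 peaks at Smad5 and 1 each at Acvr1, Bmp6 and Bmp7. The TGF-beta list had 9 of 16 (56.3%, 33.2% to 76.9%), with 3 intergenic peaks at Inhba, which encodes an activin subunit, and 2 each at Ski, Smad2 and Tgfbr3. With any peak within 100 kb of a start counted, 7 of these 16 genes had one. Of the Wnt list, 9 of 34 genes had a peak, and Wnt5b had 2 although no peak was present at its start and it had neither proximal-specific nor distant shared peaks. Frzb, a secreted Wnt antagonist of cartilage, had 1 in its intron 1 at 3276 bp from the start.

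Limb patterning genes had a peak in 9 of 37 cases. Irx3, a homeodomain factor, had 3 intergenic peaks at 29462, 135178 and 171334 bp from its start, with 1 proximal-specific and 1 shared distant peak. Meis1, a partner of HOX proteins, had 2, and Msx2 had 1 at 247748 bp, about as far (247739 bp) from the nearest shared peak. Joint and articular cartilage genes had a peak in 7 of 15 cases (46.7%, 24.8% to 69.9%), led by Creb5 with 5 and Erg, an ETS factor of articular chondrocytes, with 2 in its introns. Proximal-specific peaks were nearest to 5 of these 15 genes and shared peaks to 10. The tendon and fibrous tissue list had 9 of 18, with 3 at Tnc and 2 at Dcn, and 9 of the 18 also had proximal-specific peaks. In the list of AP-1 and related factors, 4 of 15 had a peak, with 3 each at Bach2, where all were intronic, and Jun. The hypertrophy and bone formation list had 7 of 22, among them Foxo1 with 2 and Dlx5, whose start had a distal peak only, with 1. Proximal-specific peaks were nearest to 7 chondrogenic regulators, 5 cartilage matrix, 3 hedgehog and PTHrP, 7 FGF, 6 BMP and 7 TGF-beta genes. They were nearest to 8 Wnt, 9 limb patterning, 4 AP-1 and related and 3 hypertrophy and bone formation genes. The median stretch nearest to a list's genes was 394 kb for chondrogenic regulators, 69.0 kb for hypertrophy and 140 kb for hedgehog and PTHrP. It was 181 kb for FGF, 182 kb for BMP, 124 kb for TGF-beta, 165 kb for Wnt and 152 kb for limb patterning. For joint, tendon and AP-1 genes it was 189 kb, 227 kb and 81.9 kb, against 43.5 kb for all genes. The part of this length in the counts was not tested.

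Marker genes of other tissues gave a check of what the dissected ends held. At least 1 start was open at both ends for 8 of 11 cartilage genes, 0 of 10 muscle genes, 4 of 13 blood and vessel genes, 2 of 9 neural crest and nerve genes and 2 of 8 epithelial genes, against 54.9% of all protein-coding genes. A distal peak only was at a start of 1 cartilage, 0 muscle, 1 blood and vessel, 1 neural and 0 epithelial genes, against 2.74% of all. No peak was at a start of 1, 9, 8, 6 and 6 genes of these lists, in the same order, against 40.9% of all. In the longer list of 22 cartilage matrix genes, 10 had a start open at both ends, 4 had a distal peak only and 8 had no peak at a start. Distal-specific peaks were nearest to 1 muscle gene (Pax3), 4 blood and vessel genes (Runx1, Cdh5, Flt1 and Ptprc), 2 neural genes (Foxd3 and Sox10) and 1 epithelial gene (Grhl2). Runx1, described above as a factor of blood and skeletal cells, had 4 of the 8 peaks of the blood and vessel list. Its start was open at both ends. Proximal-specific peaks were nearest to 0 muscle, 4 blood and vessel, 1 neural and 3 epithelial genes. The starts of Pax3, Cdh5, Ptprc, Foxd3, Sox10 and Grhl2 carried no peak in either end, and the part of other cells in these peaks was not tested.

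Sequence around the centres differed from that of shared peaks in its motifs more than in its composition, and from that of proximal-specific peaks in both. Within 200 bases, the median GC content was 49%, as in shared peaks, against 46.5% in proximal-specific peaks and 44.5% in windows 2 kb to either side that overlapped no peak. At least 1 CG was in 89.4% of the windows, against 84.4% of proximal-specific and 89.0% of shared peaks and 77.2% of side windows. Only 3.74% of the windows were masked as repeats over more than 50% of their length, against 18.1% of the side windows.

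The AP-1 string TGAGTCA, bound by Fos and Jun proteins, was present in 690 windows (24.4%, 22.8% to 26.0%). It was present in 34.99% (33.4% to 36.6%) of proximal-specific and 32.6% (31.7% to 33.5%) of shared peaks, in 3.28% of side windows and in 3.04% of windows at the start sites of all protein-coding genes. AP-1 was thus common in distal-specific peaks but less so than in both other groups, and the intervals did not overlap. The share in distal-specific peaks was also the lowest of the 3 with 100 bases (14.5% against 21.7% and 19.2%), with the whole peak (33.8% against 48.1% and 48.5%) and in peaks of 691 bp or more, the median width of all distal peaks (13.2% of 425 against 20.9% of 588 and 25.2% of 3397).

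The RUNX string ACCACA, bound by the RUNX factors of bone and hypertrophic cartilage, was present in 13.5% (12.2% to 14.8%) of distal-specific peaks, a share within counting error of the 14.1% (13.2% to 15.1%) in side windows, and in 10.4% of start-site windows. It was present in 22.2% (20.9% to 23.6%) of proximal-specific and 18.2% (17.5% to 18.97%) of shared peaks. Proximal-specific peaks thus held it most often, and distal-specific peaks no more often than the sequence beside them. Among 6-mers, ACCACA was one of the 3 that fell furthest below the proximal-specific share, after GAGTCA and GACTCA, which match parts of the AP-1 string. With AP-1 in the window RUNX was found in 14.1% and without it in 13.3%. The NFAT string TGGAAA followed the same order, with 21.4% against 27.6% and 24.4%, 19.04% in side windows and 12.5% in start-site windows.

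CTCF went the other way. Its motif was present in 334 windows (11.8%, 10.7% to 13.0%), against 8.78% (7.89% to 9.76%) of proximal-specific and 9.75% (9.20% to 10.3%) of shared peaks, 2.55% of side windows and 7.30% of start-site windows. The order against shared peaks turned in whole peaks (18.2% against 18.7%) and in wide peaks (2.82% against 4.36%), while that against proximal-specific peaks held in both. CTCF and AP-1 seldom occurred together, as the CTCF motif was in 3.91% (2.703% to 5.63%) of the windows with AP-1 and in 14.3% (12.9% to 15.9%) of those without.

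Less frequent strings differed in direction. The LEF/TCF string was in 2.54% (2.02% to 3.19%) of distal-specific, 3.23% (2.695% to 3.87%) of proximal-specific and 2.30% of shared peaks, and the CRE string in 0.424%, 0.368% and 0.550%, with overlapping intervals. The T-box string AGGTGTGA was in 1.84% (1.40% to 2.40%), against 1.05% (0.761% to 1.44%) of proximal-specific, 1.13% (0.943% to 1.35%) of shared peaks, 0.803% of side windows and 0.731% of start-site windows. The 6-mer ACACCT, whose reverse complement lies within that string, was in 13.0% against 8.36%, 9.73% and 10.5%. The EGR string GCGTGGG was in 2.47% against 1.47%, 2.06% and 0.589%, and the TEAD string ACATTCC in 4.70% against 3.94%, 3.66% and 2.53%. For the posterior HOX string CCATAAA the shares were 3.67% (3.04% to 4.43%), 2.97%, 2.69% (2.40% to 3.02%) and 2.94%. Within 200 bases these strings each marked under 5% of the peaks. For T-box, TEAD and posterior HOX the intervals of distal-specific and proximal-specific peaks overlapped, as did those of distal-specific and shared peaks for EGR and TEAD. In start-site windows EGR was in 4.13%, TEAD in 2.34% and CCATAAA in 1.42%. In whole peaks TEAD (9.57% against 10.9%) and CCATAAA (8.40% against 8.82%) fell below shared peaks. In peaks of 691 bp or more, TEAD (3.76% against 5.27%) fell below proximal-specific and EGR (1.88% against 2.36%) below shared peaks. T-box stayed above both groups, and the other orders of EGR, TEAD and CCATAAA held. The 6-mers furthest above the side windows after those of AP-1 were CAGCAG (30.6% against 16.5%) and GCTGCC (23.4% against 10.5%). Of all distal-specific windows, 31.4% held none of the AP-1, RUNX, SOX, TEAD, ETS, NFI and CTCF strings, against 25.5% of proximal-specific and 28.5% of shared peaks.

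**Figure D5:**
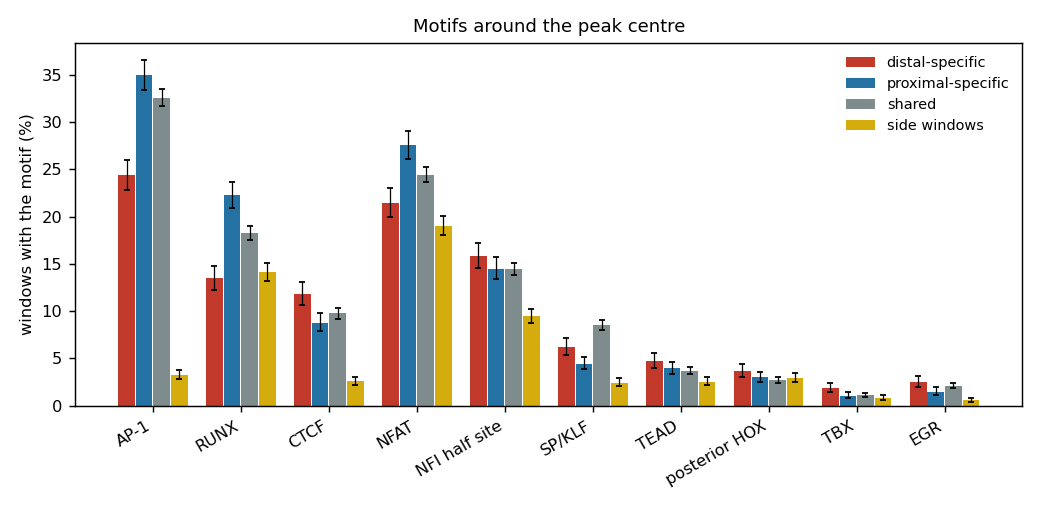
Bars give the share of windows of 200 bases (%) with a match to 10 motifs, for distant distal-specific, proximal-specific and shared peaks and for side windows 2 kb away, and error bars are 95% Wilson intervals. AP-1 was in 24.4% of distal-specific against 34.99% of proximal-specific peaks, RUNX stood at the level of the side windows, and CTCF was higher than in both other groups of peaks. The bars labelled posterior HOX are for the string CCATAAA, and CAATAAA is not drawn.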

How the data were processed

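ATAC-seq peaks of proximal and distal E15.5 femur ends were analysed. The deposited files hold positions of peaks (chromosome, start and end) in 1 list per end, without scores, which the authors made by alignment to mm10, peak calling and an IDR filter at 0.05 across the replicates. The submitters' processing notes name Bowtie2 2.2.8 and MACS2 2.1.1. Reads and sequencing depth were not analysed here, and the precision behind a peak is therefore unknown.

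Positions were compared with GRCm38 and GENCODE mouse release 21 using Python 3.11.15, NumPy 2.4.6, SciPy 1.17.1 and Matplotlib 3.10.9. All peaks lay on 19 autosomes. Shared peaks were distal peaks that overlapped a proximal peak by at least 1 bp, and distances ran between nearest edges. A centre was assigned to 3′ UTR, 5′ UTR, exon, intron or intergenic sequence, in that order. Genes named were those with 5 or more peaks, up to 4 per gene list, those of the 5 densest stretches of 200 kb, and up to 10 with at least 3 peaks and no proximal-specific peak. Motif strings were searched on both strands in 200 bases, and functions were tested on simulated data. The peaks and gene lists were chosen with earlier results of these data known. Sequences are from RefSeq GRCm38. The values of 1 gene named by the rule and of 1 motif string are not reported here.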

Additional observations from a re-analysis of the deposited data

How the results depend on the processing

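The number of distal-specific peaks was between 2001 and 3183 for distance limits of 10 kb and 1 kb, and it moved beyond 1.5 times only when peaks narrower than the median distal peak were left out, which kept 425. These wide peaks lay at a median of 44169 bp from a protein-coding start, and AP-1, RUNX and CTCF were in 13.2%, 11.8% and 2.82% of them. Counting protein-coding genes only gave 41.8% of peaks in introns and 54.8% intergenic, and a limit of 10 kb gave 51.3% intergenic, by construction of these choices. The median distance to a shared peak was 59714.5 bp when shared peaks at start sites were left out. For 73.4% of the peaks the nearest gene had a shared peak within 3 kb of a start, against 57.2% of all protein-coding genes. With 100 bases, AP-1, RUNX and CTCF were in 14.5%, 6.96% and 8.26% of peaks, and with whole peaks in 33.8%, 31.5% and 18.2%. For the other motifs and for single gene lists, 61 of 83 alternative values moved, 32 up and 29 down. By construction, a window of 100 bases could only lower the share of a motif and the whole peak only raise it. By nearest gene body, 133 genes in place of 132 had at least 3 peaks, 110 of them in both sets, and the 12 genes with at least 5 kept that number.

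No paired analysis was possible because each femur end has 1 list in which the authors combined the replicates, and for the same reason no result was recomputed without a replicate. Specificity is the absence of a call in the other list at one threshold, and a peak just below it at the proximal end counts as distal-specific here. Sequence differences between FVB and the reference were not examined.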
